A study of Rattus norvegicus with 18 samples.

Results

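rno-miR-181c and rno-miR-181d are 2 microRNAs (miRNAs) of the rat that come from neighbouring hairpins on chromosome 19. They were taken from the 160 miRNAs and candidate miRNAs of the study for which a sequence could be had, and their tags (unique read sequences) were counted where they were identical to the mature sequence over the common length, began within 3 nt of its 5′ end and ended at most 3 nt past its 3′ end. In all, 115 unique tags with 241618 reads were miR-181c and 211 unique tags with 740249 reads were miR-181d, and 0 of these 326 tags fitted a second miRNA of the table.

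The study asked how small RNAs change while the rat cerebral cortex develops. Small RNA of Sprague Dawley rats was sequenced at 8 stages, embryonic days E10, E13 and E17 and postnatal days P0, P3, P7, P14 and P28, in untreated tissue. The labels name the tissue as forebrain at E10 and E13 and as cortex from E17 on, which was mainly the somatosensory area, so that stage and tissue cannot be told apart where these first 2 stages enter a comparison. P0 had 2 tissue samples and every other stage 1, and each of the 9 tissue samples was sequenced in 2 runs, which gave 18 libraries. How many animals a tissue sample holds is not given in the sources used here.

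The miR-181 family has 4 guide strands, miR-181a to miR-181d, that share their seed, the bases 2 to 8 that pair with target mRNAs. The family is best known for tuning receptor signalling in lymphocytes, and it is also expressed in neurons and glia. Neighbouring miRNA hairpins are often cut from 1 primary transcript, and each hairpin can give a guide strand from 1 arm and a less abundant passenger strand from the other.

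RefSeq places the Mir181c hairpin at chr19:40888291-40888396 and the Mir181d hairpin at chr19:40888474-40888556, both on the plus strand of build GRCr8. The hairpins lie 77 bases apart and overlap no other gene of the RefSeq table, and the gene that follows them, Nanos3, begins 974 bases further on. The mature forms are shown with the seed in capitals because the family differs only outside it, and those of miR-181b (chr13:52037263-52037285) and miR-181a (chr3:43025601-43025623) follow for comparison. For miR-181a the RefSeq table lists 2 loci, of which Mir181a2 on chr3 is the one given and the other, Mir181a-1, lies on chr13 as miR-181b does.
rno-miR-181c-5p: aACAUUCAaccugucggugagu
rno-miR-181d-5p: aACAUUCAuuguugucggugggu
rno-miR-181b-5p: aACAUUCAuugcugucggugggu
rno-miR-181a-5p: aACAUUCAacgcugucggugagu
Counted from the 5′ end, miR-181b differs from miR-181d by the single change T12C, in DNA letters, and miR-181c equals miR-181a without base 11. A tag that is 1 base (T12C) away from miR-181d is therefore the sequence that RefSeq lists as miR-181b.

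The libraries held 4899010 to 16590379 clean reads. A library's share of tags of 18 to 21 nt was 12.8% in run 2 of E10 and 31.4% to 67.0% in the other 17 libraries. The highest shares, 61.0% to 67.0%, were those of run 1 of P14, P7 and P0 replicate 1. These 4 libraries stood apart in tag length, so results are also given without them. miRNAs known from mesenchyme (4 of 4 listed had a sequence) summed to 31134 and 42142 TPM at E10 and E13 and to 532 to 4138 TPM in the later samples, where TPM is reads per 1000000 clean reads. miRNAs known from neurons, 3 of 4 listed (miR-128, miR-138 and miR-9), summed to 23780 to 68585 TPM at E10 and E13 and to 56715 to 186501 TPM in cortex. The study cites miR-9 as a regulator of embryonic neurogenesis, so this sum need not stand for neurons alone. miRNAs known from red blood cells, 2 of 3 listed, were at 1143 TPM at E10 and at 32.3 to 99.8 TPM later. The part of these differences in tissue and library in the results below was not tested.

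In TPM, both members were highest at E10 and lowest at P28 when the 2 runs of a tissue sample were averaged. For miR-181c these levels were 3070 and 191 TPM, a ratio of 16.0, and for miR-181d they were 14456 and 431 TPM, a ratio of 33.6. Within run 1 these ratios were 15.5 and 35.8, and within run 2 they were 16.4 and 33.2. Run 2 of E10 was the library with few short tags. With E10 from run 1 only and P28 averaged over its runs, the ratios were 13.0 for miR-181c and 10.5 for miR-181d. That setting mixes runs, and at P28 miR-181d had 126 TPM in run 1 and 736 TPM in run 2. These TPM values rest on all clean reads. Divided by the TMM factors that the slopes below use, which set samples to a common typical miRNA and were 1.95 at E10 and 0.892 at P28, the ratios of E10 to P28 with runs summed were 7.32 and 14.8 in place of 16.0 and 32.4. On that scale miR-181c was highest at P0 (2656 and 1291 in the 2 replicates) and had 1632 at E10, whereas miR-181d remained highest at E10 (8413), and both were lowest at P28. In such bulk tissue, fewer cells of a type and less RNA per cell cannot be told apart. P0, the only stage with 2 tissue samples, stood at 1480 ± 811 TPM for miR-181c (SD, n = 2) and at 1986 ± 254 TPM for miR-181d (SD, n = 2). The latter SD averages over runs in which the replicates lay in opposite order, and within run 1 and run 2 the SD of miR-181d was 1143 and 1652 TPM (n = 2 each).

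At E10, miR-181c had 2495 TPM in run 1 and 3645 TPM in run 2. At E13 it had 476 and 881 TPM, and at E17 504 and 1108 TPM in the same order of runs. In P0 replicate 1 it had 1137 and 2970 TPM, and in P0 replicate 2 it had 1087 and 727 TPM. The P0 replicates were thus close in run 1 and far apart in run 2. Later miR-181c stood at 1009 and 898 TPM at P3 and at 472 and 485 TPM at P7. It had 314 and 390 TPM at P14 and 161 and 222 TPM at P28. The libraries of P7, P14 and P28 did not overlap one another and fell in this order in both runs, whereas from the highest stage down to P7, in the order E10, P0, P3, E17, E13 and P7, each stage overlapped the next.

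miR-181d had 4503 TPM in run 1 and 24409 TPM in run 2 of E10. At E13 it had 398 and 3608 TPM, and at E17 468 and 2370 TPM. In P0 replicate 1 it had 109 and 4223 TPM, and in P0 replicate 2 it had 1725 and 1887 TPM, so that the P0 replicates were far apart in both runs. Only E10 lay above the libraries of the stage next to it in order, E13, and all later neighbours overlapped. The values continued at 1478 and 1991 TPM at P3, 88.2 and 1323 TPM at P7 and 56.7 and 1268 TPM at P14. At P28 they were 126 and 736 TPM. The lowest level, at P14 in run 1, rested on 278 reads, with a 95% Wilson interval of 50.5 to 63.8 TPM that covers counting error only.

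**Figure D1:**
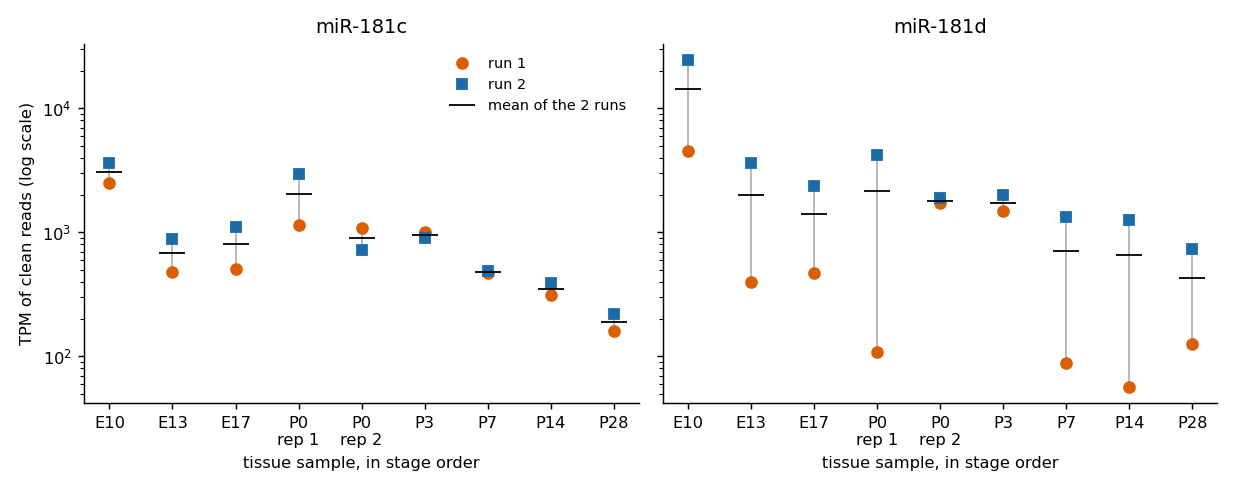
Level of miR-181c (left) and miR-181d (right) in each tissue sample, in TPM of clean reads on a log axis. Circles are run 1, squares run 2 and dashes their mean. The 2 runs of miR-181c stay within a factor of 2.61 of each other, and those of miR-181d are up to 38.7-fold apart.

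The trend over development was tested as the slope of log2 counts on the order of the 8 stages, over the 9 tissue samples with runs summed. Of all 148 miRNAs and candidates tested, 29.1% fell at an adjusted p under 0.05, and 1 of the 2 members, miR-181d, fell. Its slope was -0.44 log2 per stage (SE 0.11, adjusted p = 0.0068). That of miR-181c was -0.33 (SE 0.17, adjusted p = 0.124). The median slope of all was -0.07, and it was -0.20 without TMM scaling. Relative to that median, miR-181c lay at -0.27 with the scaling and at -0.28 without it, and miR-181d at -0.37 and -0.40. Without the scaling, 18 names rose and 65 fell, against 31 and 43 with it, and miR-181c also passed (adjusted p = 0.0111).

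Over all stages the call for miR-181d rested on E10. Without E10 its slope was -0.32 (adjusted p = 0.0981). With E10 taken from run 1 only, where 28.1% of names fell, it was -0.23 (adjusted p = 0.161). That setting sets run 1 of E10 against both runs of the other stages. Since miR-181d was higher in run 2 in 9 of 9 tissue samples, it cannot separate run from stage. Without the 4 libraries that stood apart, miR-181d had a slope of -0.20 (adjusted p = 0.385) and miR-181c one of -0.32 (adjusted p = 0.320). Leaving them out mixes runs with stage as well, since E10 then keeps run 1 and P0 replicate 1, P7 and P14 keep run 2. The slope of miR-181d was -0.61 (SE 0.34, adjusted p = 0.194) in run 1 alone, where 17.2% fell, and -0.47 (SE 0.10, adjusted p = 0.00437) in run 2 alone, where 27.5% fell. The call for miR-181c depended on the sample set, the scaling and the tool. It passed without E13 (slope -0.47, adjusted p = 0.0315), without TMM scaling, as given above, and in DESeq2 (slope -0.34, adjusted p = 0.0303). Among the 7 cortex samples from E17 to P28, which share their labelled tissue, both members fell, against 15.0% of the names tested there. miR-181c had a slope of -0.64 (SE 0.19, adjusted p = 0.0213) and miR-181d one of -0.45 (SE 0.15, adjusted p = 0.0379). Within these samples the summed markers of oligodendrocytes (2 of 2 listed) went from 43.9 TPM at E17 and 22.8 TPM in P0 replicate 2 to 10565 TPM at P28. Those of mesenchyme went from 566 TPM at E17 to 4138 TPM at P14 and 2831 TPM at P28, and those of muscle (3 of 3) from 15.3 to 1689 and 1029 TPM. Their part in the slopes was not tested.

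**Figure D2:**
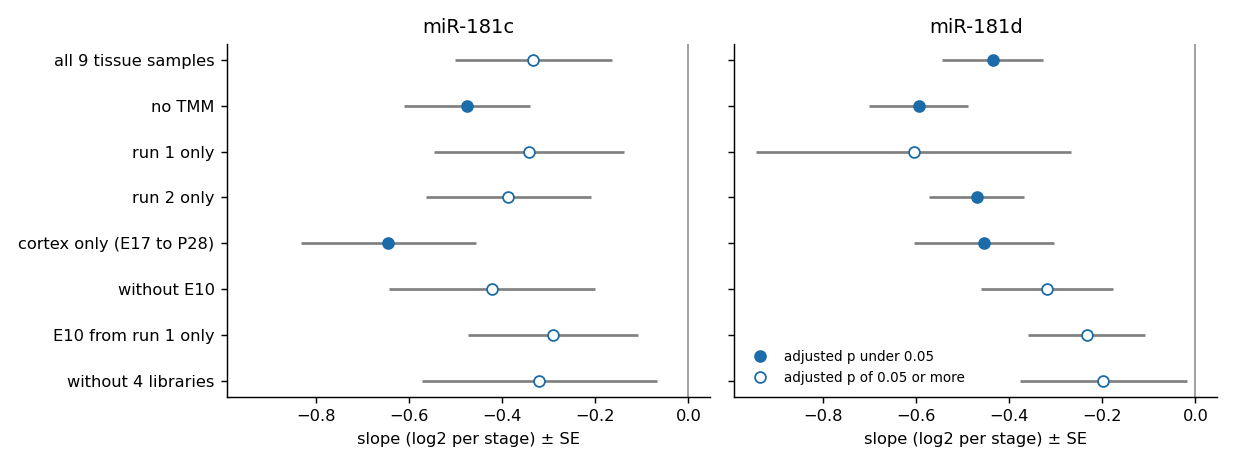
Slope on stage order in log2 per stage, with its SE as a line, for miR-181c (left) and miR-181d (right) under 8 settings. Filled points have an adjusted p under 0.05. miR-181d is open in run 1 only, without E10, with E10 from run 1 only and without 4 libraries, and both members are filled among the cortex samples.

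The level of miR-181d was higher in run 2 than in run 1 in 9 of 9 tissue samples, by 1.09-fold in P0 replicate 2 up to 38.7-fold in P0 replicate 1, with a median of 5.86. For miR-181c the ratio of run 2 to run 1 was 0.669 to 2.61, with a median of 1.38, and run 2 was higher in 7 of 9. The other family members had medians of 8.16 (miR-181a, range 2.68 to 33.9) and 37.5 (miR-181b, range 9.58 to 171). The 3 tissue samples with the largest ratios of miR-181d, P0 replicate 1, P14 and P7, were those whose run 1 library had the highest share of tags of 18 to 21 nt. Within miR-181c the ratio moved with tag length, with a median of 0.933 for 20-nt tags, 1.11 for 21-nt tags, 2.41 for 23-nt tags and 3.57 for 24-nt tags. Within miR-181d it did not follow length in the same order, since the median was 3.40 for 20-nt tags, 62.4 for 21-nt tags over the 8 samples with at least 10 reads in each run, 2.89 for 22-nt tags and 7.11 for 24-nt tags.

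**Figure D3:**
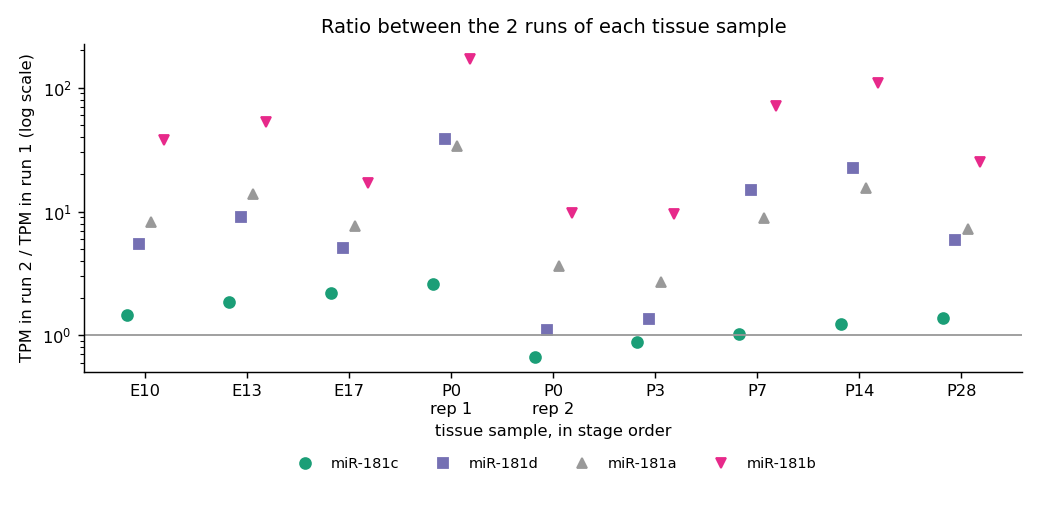
Ratio of the TPM in run 2 to that in run 1 for the 4 family members in each tissue sample, on a log axis, with a line at equal levels. miR-181c lies between 0.669 and 2.61 and miR-181b between 9.58 and 171.

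The ratio of miR-181c to miR-181d therefore depended on the run. With reads of both runs summed it was below 1 in all 9 tissue samples, from 0.194 at E10 to 0.819 in P0 replicate 1. In run 2 it was 0.149 to 0.703, again lowest at E10 and highest in P0 replicate 1. In run 1 it was 0.554 at E10, 1.20 at E13, 1.08 at E17, 10.4 and 0.630 in the P0 replicates, 0.683 at P3, 5.35 at P7, 5.53 at P14 and 1.28 at P28, so that miR-181c was the more abundant in 6 of 9. With summed runs its log2 value had no detectable relation with stage order (Pearson's r = 0.36, exact two-sided permutation p = 0.341, adjusted p = 0.409 over 12 relations; Spearman's rho = 0.23, p = 0.540, adjusted p = 0.721). Pearson's r was 0.41 in run 1 and 0.30 in run 2, and 0.11 without E10 and P28, the 2 samples farthest from the median stage. It turned to -0.68 among the 7 cortex samples (adjusted p = 0.495, exact permutation), to -0.16 with E10 from run 1 only and to -0.35 without the 4 libraries. The last 2 settings mix runs with stage, since E10 then keeps only run 1, where its ratio was 0.554 against 0.149 in run 2.

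The T12C tag family, listed by RefSeq as miR-181b, had about as many reads as miR-181d. Over bases 1 to 18, reads with T12C were 101% of the unchanged miR-181d reads, whereas the most frequent of the other 53 single changes, C7T, reached 0.165% and the median of these was 0.0260%. In run 1 the family had 0.135 to 0.358 reads per read of miR-181d, and in run 2 it had 0.914 to 1.62. The ratio was highest at P28 in both runs, and in each run the 3 highest values included P14 and P28. In run 1 the ratio was 0.179 at E10, 0.193 at E13, 0.274 at E17, 0.212 and 0.135 in the P0 replicates, 0.173 at P3, 0.259 at P7, 0.277 at P14 and 0.358 at P28. In run 2 it was 1.21, 1.13, 0.914, 0.967, 1.15, 1.17, 1.18, 1.37 and 1.62 in the same order. Its log2 value had r = 0.50 with stage order (exact permutation p = 0.173, adjusted p = 0.348) and rho = 0.48 (p = 0.198, adjusted p = 0.474). The r was 0.62 in run 1, 0.64 in run 2, 0.48 without E10 and P28, and 0.88 among the 7 cortex samples (p = 0.0131, adjusted p = 0.157, exact permutation). It was 0.73 with E10 from run 1 only (adjusted p = 0.112, exact permutation) and 0.74 without the 4 libraries (adjusted p = 0.108, exact permutation). A relation was thus not shown after adjustment in any of these settings. The last 2 settings mix runs with stage, since E10 then keeps only run 1, where its ratio was 0.179 against 1.21 in run 2.

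**Figure D4:**
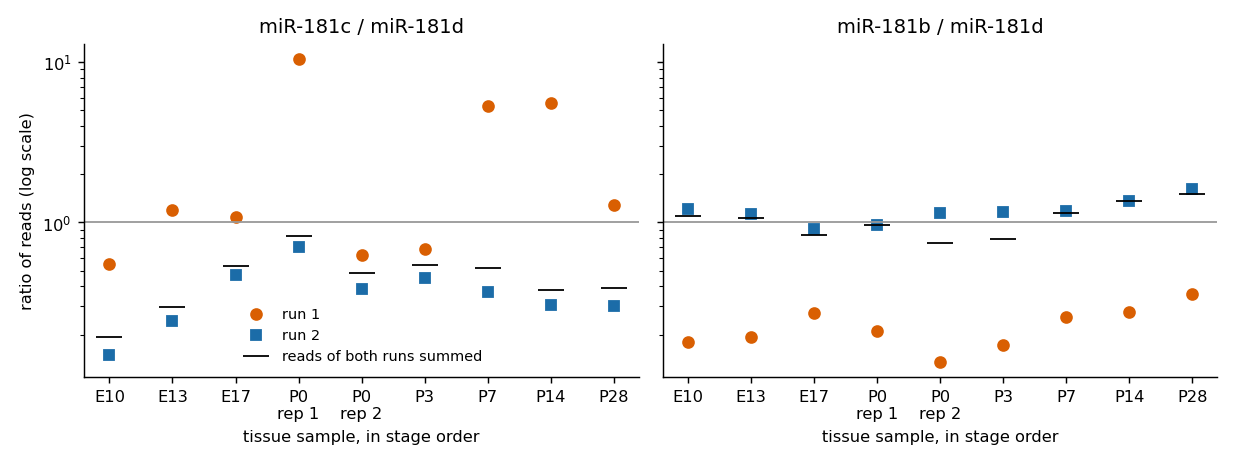
Reads of miR-181c per read of miR-181d (left) and reads of miR-181b, the T12C tag family, per read of miR-181d (right) in each tissue sample, on a log axis. Circles are run 1, squares run 2 and dashes both runs summed. Run 1 puts miR-181c above miR-181d in 6 of 9 samples and miR-181b below it in all 9.

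Reads that begin with bases 1 to 8 of the family came to 51.7% from miR-181a, 20.3% from miR-181b, 20.2% from miR-181d and 6.11% from miR-181c, and no other sequence reached 1% of them. Within these 4, miR-181c took 10.1% to 50.8% in the libraries of run 1 and 3.63% to 7.78% in those of run 2, ranges that do not overlap. The share of miR-181d was 6.30% to 34.9% in run 1 and 12.04% to 24.8% in run 2. It was highest at E10 and lowest in P0 replicate 1 in both runs.

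In a fit of 477 RefSeq mature sequences over all 9 tissue samples, of which 27.3% fell, 2 of the 4 family guide strands fell. These were miR-181d (slope -0.45, adjusted p = 0.0090) and miR-181b (-0.40, SE 0.10, adjusted p = 0.00651). miR-181c had -0.39 (adjusted p = 0.0955) and miR-181a -0.27 (SE 0.16, adjusted p = 0.183). With E10 from run 1 only, 25.6% of the sequences fell and 0 of the 4 passed in edgeR's quasi-likelihood test (adjusted p = 0.0892 for miR-181c, 0.0685 for miR-181d, 0.657 for miR-181a and 0.696 for miR-181b). In that test 2 of the 4, miR-181c and miR-181d, had an unadjusted p under 0.05. Among the study's 146 names in the same setting, 75 did, rising or falling. This setting sets run 1 of E10 against both runs of the other stages. Since miR-181a, miR-181b and miR-181d were higher in run 2 in 9 of 9 tissue samples, it cannot separate run from stage. Among the 7 cortex samples, where 20.8% of 453 sequences fell, all 4 fell. The slopes there were -0.74 for miR-181c (adjusted p = 0.00413), -0.55 for miR-181d (adjusted p = 0.0102), -0.54 for miR-181a (adjusted p = 0.0199) and -0.35 for miR-181b (adjusted p = 0.0454).

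The passenger strands of both hairpins were read as well, and RefSeq gives their sequences, shown in lower case to compare the arms.
rno-miR-181c-3p: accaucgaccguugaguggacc
rno-miR-181d-3p: ccaccgggggaugaauguca
miR-181c-3p had 69 to 3095 reads per library in run 1 and 759 to 6671 in run 2. miR-181d-3p had 5 to 442 reads in run 1 and 19 to 264 in run 2. As a share of the guide strand, the passenger of miR-181c was 3.91% to 15.9% in run 1 and 5.09% to 31.3% in run 2, and that of miR-181d was 0.564% to 3.05% and 0.0474% to 0.503%. In each run the lowest share of miR-181c-3p was above the highest of miR-181d-3p. Over all 9 tissue samples miR-181d-3p fell (slope -0.46, SE 0.17, adjusted p = 0.0435), as did 27.3% of all sequences, but in run 2 alone it did not pass (-0.41, adjusted p = 0.113), and miR-181c-3p had a slope of -0.37 (SE 0.18, adjusted p = 0.107). Among the 7 cortex samples both fell, by 0.70 and 0.78 log2 per stage for miR-181c-3p and miR-181d-3p (adjusted p = 0.00682 and 0.00143), where 20.8% of all sequences fell.

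The 2 members differed in their 3′ ends. Frequent tags of each are shown with bases that the hairpin does not encode in capitals, because these tails set the members apart.
miR-181c, 21 nt: aacattcaacctgtcggtgag
miR-181c, 24 nt: aacattcaacctgtcggtgagttt
miR-181c, 20 nt: aacattcaacctgtcggtga
miR-181d, 24 nt: aacattcattgttgtcggtgggtt
miR-181d, 25 nt, U tail: aacattcattgttgtcggtgggttT
miR-181d, 26 nt, UU tail: aacattcattgttgtcggtgggttTT
miR-181d, 25 nt, A tail: aacattcattgttgtcggtgggttA
miR-181d, 26 nt, AU tail: aacattcattgttgtcggtgggttAT
Of the reads of miR-181c, 33.3%, 28.3% and 18.2% were these 3 tags, and the 22-nt form that RefSeq lists was 1.34%. The share of the 24-nt tag rested on run 2 of E10, which held 75.0% of its reads. Without that library the 21-nt tag held 44.2%, the 20-nt tag 24.2%, a 23-nt tag 17.8% and the 24-nt tag 9.40%. Of those of miR-181d, the 24-nt tag held 50.4%, the tag with a U tail 15.8%, that with UU 4.95%, that with A 4.93% and that with AU 4.18%, and the 23-nt form of RefSeq held 4.31%. Without run 2 of E10 these shares were 40.6% for the 24-nt tag, 16.6% with U, 6.95% with UU, 5.05% with A and 4.51% with AU, and tags of 21 and 22 nt without a tail held 6.92% and 4.56%. The 5′ ends hardly varied, since 99.0% of miR-181c reads and 98.7% of miR-181d reads began at the first base of the mature form, and 0.741% and 1.14% began 1 base later.

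Outside run 2 of E10, the 17 other libraries gave miR-181c 2 groups of lengths with few tags between them. Tags of 20 nt held 17.9% to 47.1% and of 21 nt 41.4% to 50.4% of its reads, 22-nt tags 0.657% to 2.28%, 23-nt tags 3.52% to 22.3% and 24-nt tags 1.61% to 14.6%. In run 2 of E10, 86.5% of 59851 reads were 24 nt long (95% Wilson interval 86.3% to 86.8%) and 0.140% were 21 nt long, against 7.87% and 44.4% in run 1 of the same tissue sample. Of the reads of miR-181d, 24-nt tags held 58.9% in that library and 18.7% to 48.9% in the others, and 24 nt was the most frequent length in 16 of 18 libraries. In the other 2, run 1 of P0 replicate 1 and of P14, tags of 20 nt led with 22.1% and 19.4% against 20.4% and 18.7% at 24 nt. Over all small RNAs, 12.8% of the reads in run 2 of E10 were of 18 to 21 nt, the smallest share of the 18 libraries.

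**Figure D5:**
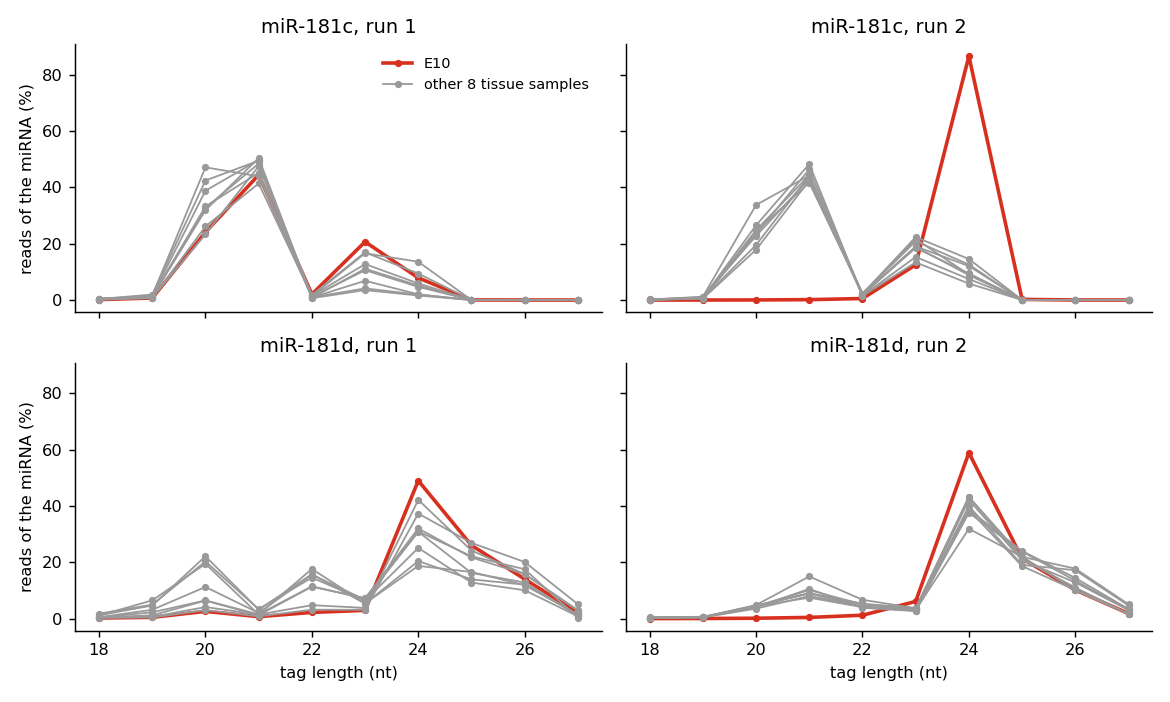
Share of the reads of miR-181c (top) and miR-181d (bottom) at each tag length, in percent, for run 1 (left) and run 2 (right). The line of E10 is coloured and the 8 other tissue samples are grey. Most miR-181c reads are 20 or 21 nt long in all libraries but run 2 of E10, where 86.5% of the reads are 24 nt long.

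Tails that the hairpin does not encode are added to finished miRNAs by nucleotidyl transferases, mostly as A or U. Among tags that matched the hairpin over at least 19 bases, a tail was found on 1.70% to 8.64% of miR-181c reads in run 1 and 3.09% to 9.37% in run 2. On miR-181d it was found on 42.3% to 67.9% and 35.5% to 57.9%. These shares include tails with a G or C, which were on 6.32% to 20.2% of miR-181d reads in run 1 and on 0.650% to 1.34% in run 2, ranges that do not overlap, and on 0.732% to 2.04% and 0.105% to 0.312% of miR-181c reads. The lowest share of miR-181d was above the highest of miR-181c in both runs. An added base that equals the next base of the hairpin counts as encoded, which hides U tails on 21-nt to 23-nt reads of miR-181c and, on miR-181d, those on 22-nt and 23-nt reads. Over all libraries a single U (14.1%), a single A (7.63%), AU (6.75%) and UU (4.43%) were the commonest tails of miR-181d, whereas a single U was on 3.41% and a single A on 1.66% of the miR-181c reads. With both runs summed the share of tailed miR-181d reads was 37.7% at E10, 42.2% at E13, 45.3% at E17, 49.0% and 62.2% in the P0 replicates, 51.6% at P3, 47.5% at P7, 52.4% at P14 and 53.3% at P28.

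That share had r = 0.60 with stage order (exact permutation p = 0.0842, adjusted p = 0.253) and rho = 0.74 (p = 0.0280, adjusted p = 0.223). The r was 0.12 in run 1, 0.68 in run 2, 0.36 without E10 and P28 and 0.12 among the 7 cortex samples. P0 replicate 2 decided the call, since r was 0.91 without it (exact permutation, adjusted p = 0.0164). With E10 from run 1 only and without the 4 libraries, r was 0.24 in both cases. Both settings mix runs with stage, since E10 then keeps only run 1, where 53.0% of miR-181d reads had a tail against 35.5% in run 2. For miR-181d reads that end at the 24-nt end, r was -0.65 (exact permutation p = 0.0415, adjusted p = 0.253) and rho -0.71 (p = 0.0371, adjusted p = 0.223). It was -0.52 in run 1, -0.62 in run 2, -0.27 without E10 and P28 and -0.22 among the 7 cortex samples (adjusted p = 0.862, exact permutation). With E10 from run 1 only it was -0.65 and without the 4 libraries -0.63, and without P0 replicate 2 it was -0.75 and passed (adjusted p = 0.0164, exact permutation). The other 8 relations of end variants with stage order had adjusted p-values of 0.253 to 0.978 for Pearson's r and 0.326 to 0.854 for rho in exact permutation tests.

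By their levels in the 9 tissue samples, on the log2 scale of TPM plus 1, the names outside the cluster most like miR-181c among 61 with a mean of at least 50 TPM were Candidate0055 (Pearson's r = 0.90), rno-miR-340-5p (0.87) and rno-miR-93 (0.84). Those most like miR-181d were rno-miR-340-5p (0.98), Candidate0055 (0.90) and rno-miR-25 (0.89), and the members themselves had r = 0.91, above each name given for miR-181c and below rno-miR-340-5p for miR-181d. These are descriptions over 9 points that share libraries and read totals. The names compared came from the study's own list of sequences, which lacks miR-181a and miR-181b. How alike these 2 family members are to miR-181c and miR-181d was therefore not ranked.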

How the data were processed

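Total RNA of 9 tissue samples was size selected, ligated to adapters, amplified and sequenced by the Solexa technique, with 2 runs per tissue sample. After filtering for quality, adaptor sequence and ligation contaminants, the authors merged reads of the same sequence and deposited for each of the 18 libraries the length, the sequence and the raw count of reads of every unique clean tag, without mapping or normalization. Runs are technical, and only P0 had 2 tissue samples, so p-values over the 9 samples measure the spread about the trend between these samples.

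The mature sequences came from the study's primers and list of nucleotide changes, and for miR-181d and miR-181c the mature end was the most abundant tag of the family that fitted the list. RefSeq mature sequences and hairpins (build GRCr8) gave the names of the other family members, the passenger strands and the templated bases. Markers of other cells were matched to the same table, and rno-miR-124-3p, rno-miR-486 and rno-miR-150-5p had no entry. Markers of oligodendrocytes (22.8 to 10565 TPM over the tissue samples), muscle (13.2 to 1689), myeloid cells (7.79 to 79.8), liver (22.7 to 98.7) and lymphocytes (0.120 to 5.94) were summed as well. Of all the listed markers, 1, of muscle, was at 0 in a tissue sample. Slopes came from the quasi-likelihood test of edgeR 4.0.16 (R 4.3.3, TMM scaling, at least 10 reads in at least 2 samples, library sizes from all clean reads, Benjamini-Hochberg adjustment over all names tested), and DESeq2 1.42.0 was an alternative, with limma 3.58.1 loaded by edgeR. Relations with stage order used exact permutation over all pairings, with 12 relations adjusted together. Scripts were tested on simulated data. Figures were drawn with matplotlib 3.10.9, and counting and permutation ran in Python 3.11.15 (scipy 1.17.1, pandas 2.3.3, numpy 2.4.6).

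The members, lists and tests were chosen with earlier results of these data known. Named besides the members were the T12C family, other tags with at least 1% of the reads that share bases 1 to 8, the passenger strands and the 3 names with the highest r to each member. The tail relation and the settings that leave out libraries by tag length were added after the data were seen.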

Additional observations from a re-analysis of the deposited data

How the results depend on the processing

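Run numbers were shared by all tissue samples. Of 36 pairs of tissue samples, 31 had a correlation over 0.1 between their libraries' deviations (median 0.32) and 5 did not (lowest -0.12). The numbers were taken as pairing only if every pair was over 0.1, so the fit with the block is an alternative. With the run number as a replicate block, in a fit that counts the 2 technical runs of a tissue sample as separate samples, the slope of miR-181c was -0.39 (adjusted p = 0.0223) and 89 names passed; miR-181d kept its side. The slope of miR-181c also passed with total clean reads and no TMM (-0.47), DESeq2 (-0.34), without E13 (-0.47) and with cortex samples only (-0.64). That of miR-181d missed the threshold without E10 (-0.32), in run 1 only (-0.61), with E10 from run 1 only (-0.23) and without the 4 libraries that stood apart (-0.20). The last 2 of these settings mix runs with stage. Leaving out each tissue sample gave -0.47 to -0.20 for miR-181c and -0.53 to -0.32 for miR-181d, and 56 to 74 names past the threshold. That number was 74 with all samples, 37 in run 1 only, 44 among cortex samples only and 212 in the larger RefSeq table. Counts with all other settings stayed within 1.5 times.

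In exact permutation tests 0 of the 12 correlations passed with all samples (1 had an unadjusted p under 0.05 for Pearson's r and 2 for Spearman's rho), and the signs of several turned. For the ratio of miR-181c to miR-181d r was -0.081 without E10, -0.68 among cortex samples, -0.16 with E10 from run 1 only and -0.35 without 4 libraries, and for the ratio of the T12C family to miR-181d it was -0.10 with identical tags only. The share of miR-181c reads at the mature 3′ end had r = -0.11 without the 2 farthest samples, -0.17 with E10 from run 1 only and -0.33 without 4 libraries. Its share of shifted 5′ ends had -0.74 in run 1 only, -0.20, -0.58 and -0.50 in those same 3 settings. For miR-181d, the share before the mature 3′ end had -0.27 without the 2 farthest samples and the share past it -0.21 in run 1 only. Its shifted 5′ ends had -0.33 with tags in both runs, -0.41 among cortex samples, -0.46 without the 2 farthest samples, -0.49 with E10 from run 1 only and -0.50 without 4 libraries. The settings with E10 from run 1 only and without 4 libraries mix runs with stage. The cause of the turns of sign was not tested.

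Leaving out each tissue sample gave r from -0.081 (without E10) to 0.51 for the ratio of miR-181c to miR-181d and from 0.24 to 0.68 for that of the T12C family to miR-181d. For miR-181c it gave 0.37 to 0.77 before, -0.23 to 0.71 at and -0.76 to -0.21 past the mature 3′ end, -0.22 to 0.54 for shifted 5′ ends and -0.76 to -0.09 for tails. For miR-181d it gave -0.11 to 0.65, -0.75 to -0.41 and 0.30 to 0.73 for the 3′ ends in the same order, -0.56 to 0.24 for shifted 5′ ends and 0.40 to 0.91 for tails. Depth limits miR-181d most in run 1 of P14, at 278 reads.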
